A study of Mus musculus with 20 samples.

Results

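The 9 genes described here, Atm, Atr, Brca1, Topbp1, Mdc1, Rnf8, H2afx, Chek1 and Chek2, encode kinases, mediators and the histone substrate of the DNA damage signalling pathway. They were chosen by name, because of the roles of their products and not by their values, from a table of 23235 genes. Earlier results of these data were known when they were chosen. All 9 are in the table, and 8 of them were among the 12956 genes with at least 1 FPKM (fragments scaled by transcript length and by library total) in at least 2 libraries. Atm reached 1 FPKM in 1 library and was therefore not tested. The libraries came from testes of adult male mice on a C57BL/6J background, either wild type (WT) or lacking Cxxc1 (Cxxc1-null). The allele, the cells in which Cxxc1 was deleted and the ages are not given in the sources used here. Each library was made from 500 spermatocytes sorted by FACS, with Smart-seq2, which primes full-length cDNA on poly(A) tails. Each genotype was sampled in pachytene, in diplotene and in meiosis II, which gave 3 stages and 6 groups of 2 libraries. Group levels are given as mean ± SD of the 2 libraries.

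In a DNA break response, the kinases ATM and ATR phosphorylate the histone variant H2AX, MDC1 binds the phosphorylated histone, and the ubiquitin ligase RNF8 is recruited by MDC1. TOPBP1 activates ATR, and CHK1 and CHK2 carry the signal to the cell cycle. In meiosis BRCA1 helps to place ATR on unsynapsed axes. In mouse spermatocytes at pachytene several of these proteins also coat the unsynapsed X and Y chromosomes. There, ATR activity and the spread of phosphorylated H2AX by MDC1 are needed for silencing of the sex chromosomes. Cxxc1 encodes a CpG-binding subunit of a complex that methylates histone H3 at lysine 4, and the study asked how meiotic cells change without it.

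Cxxc1 itself was between 11.7 and 17.6 FPKM in the WT libraries and between 2.02 and 9.57 FPKM in the Cxxc1-null libraries, and the genotypes did not overlap. The log2 difference was -1.96 ± 0.25 (SE) in meiosis II with a limma adjusted p of 0.0024. It was -0.56 ± 0.25 in pachytene (adjusted p = 0.47) and -0.74 ± 0.25 in diplotene (adjusted p = 0.22), so in those stages the difference in Cxxc1 did not pass. The number of genes at 1 FPKM or more was 9838 to 11624 per library, and Pearson's r of log2(FPKM + 1) between the 2 libraries of a group was 0.957 to 0.976. Replicate 2 of WT pachytene and replicate 2 of Cxxc1-null diplotene were seen to stand apart in an earlier look at these libraries, and the counts of changed members were the same without them. The summed level of 8 spermatocyte markers was 8053 to 14454 FPKM over the 12 libraries. Ldhc carried that sum, with WT means of 8318, 9766 and 8397 FPKM in pachytene, diplotene and meiosis II. Over the same WT stages Sycp3 averaged 1661.5, 401 and 160 FPKM, and Ccna1 49.0, 141 and 333 FPKM. Between genotypes, 7 of the 8 had a log2 difference below 0 in pachytene and in diplotene, and 6 in meiosis II. The rest were above 0, and none passed in limma at a single stage. The summed level of 8 round spermatid markers was 7005 to 10090 FPKM in WT meiosis II but 1880 to 3859 FPKM in Cxxc1-null meiosis II, none of the 8 markers being at 0 in a group.

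The promoters of 4 members are shown because Cxxc1 encodes a protein that binds unmethylated CpG, and because these 4 genes span the patterns described below, namely the highest and the lowest kinase, the steepest decline and the dip in diplotene. The sequences are the 250 bases before the annotated start, from RefSeq on GRCm38.p6, read 5′ to 3′ on the strand of the gene, with every CG in capitals. Atr lies on the plus strand (chr9:95857347-95857596), Topbp1 on the plus strand (chr9:103305077-103305326), Chek1 on the minus strand (chr9:36726659-36726908) and Atm on the minus strand (chr9:53536672-53536921).
Atr: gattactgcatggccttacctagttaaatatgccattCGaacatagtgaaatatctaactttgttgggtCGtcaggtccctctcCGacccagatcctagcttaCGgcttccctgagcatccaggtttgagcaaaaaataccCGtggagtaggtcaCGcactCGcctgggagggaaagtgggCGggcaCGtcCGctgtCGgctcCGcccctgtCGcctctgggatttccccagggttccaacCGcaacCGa
Topbp1: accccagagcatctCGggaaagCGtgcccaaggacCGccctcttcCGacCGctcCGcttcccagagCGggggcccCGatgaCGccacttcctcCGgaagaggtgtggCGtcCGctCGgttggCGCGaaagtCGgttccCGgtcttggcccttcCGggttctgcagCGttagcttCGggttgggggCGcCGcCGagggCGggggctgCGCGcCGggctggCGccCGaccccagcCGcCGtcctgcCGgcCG
Chek1: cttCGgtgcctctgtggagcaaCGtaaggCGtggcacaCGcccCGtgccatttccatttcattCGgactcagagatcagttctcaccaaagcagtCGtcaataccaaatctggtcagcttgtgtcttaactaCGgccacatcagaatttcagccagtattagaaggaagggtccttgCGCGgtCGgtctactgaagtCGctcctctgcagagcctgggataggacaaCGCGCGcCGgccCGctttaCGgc
Atm: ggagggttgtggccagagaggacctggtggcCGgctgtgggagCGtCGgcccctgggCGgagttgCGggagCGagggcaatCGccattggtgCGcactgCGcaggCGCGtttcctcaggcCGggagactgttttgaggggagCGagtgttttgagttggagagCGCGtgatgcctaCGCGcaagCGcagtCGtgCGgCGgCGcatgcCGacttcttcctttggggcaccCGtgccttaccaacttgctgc
Topbp1 held 33 CG pairs, more than 96.0% of the 32851 mouse promoters of the same length. Atm held 24, Chek1 18 and Atr 15. The 8 members with a promoter entry, H2afx having none, held between 12 and 33 with a median of 17.5, against a median of 6 over all promoters.

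In the same 250 bases, read on both strands, CCAAT occurred in 5 of 8 members and in 33.9% of all promoters. The GC box GGGCGG occurred in 4 of 8 members, among them Atr, Topbp1 and Atm, and in 32.7% of all promoters. The letters TTTCCCGC, an E2F-type site, occurred in Mdc1 and Chek2 and in 0.895% of all promoters, and the related TTTGGCGC occurred in none of the 8 members and in 0.417% of all promoters. CAGTTG, the core recognised by MYB proteins, was in none of the 8 and in 11.1% of all promoters. TTTCCCGC, TTTGGCGC and GGGCGG each hold a CG and so overlap the CG count, and a match is a description of letters only. In the RefSeq annotation 5 of the 9 members (Atm, Atr, Topbp1, H2afx and Chek1) are on chromosome 9, Mdc1 and Rnf8 are on chromosome 17, Brca1 is on chromosome 11 and Chek2 is on chromosome 5.

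Atr, the kinase that responds to single-stranded DNA and drives sex chromosome silencing, had the highest level of the 9 genes in pachytene and diplotene. In pachytene it was at 117 and 124 FPKM in the WT libraries and at 114 and 148 FPKM in the Cxxc1-null libraries. In diplotene it was at 92.4 and 79.9 FPKM in the WT libraries and at 83.6 and 88.8 FPKM in the Cxxc1-null libraries. In both genotypes every diplotene library was below every pachytene library, while the genotypes overlapped within each stage. In meiosis II the WT libraries had 40.2 and 27.2 FPKM and the Cxxc1-null libraries 20.3 and 20.2 FPKM, so that here both Cxxc1-null libraries were below both WT libraries. Atr fell from diplotene to meiosis II by 1.35 ± 0.22 (SE) on the log2(FPKM + 1) scale in WT (limma adjusted p = 0.00076) and by 2.04 ± 0.22 in Cxxc1-null (adjusted p = 0.00011). The step from pachytene to diplotene was -0.48 ± 0.22 in WT (adjusted p = 0.14) and -0.59 ± 0.22 in Cxxc1-null (adjusted p = 0.075) and did not pass. In sorted bulk samples, a lower level from fewer cells with the transcript cannot be told apart from less transcript in each cell. The WT pachytene mean of Atr was above that of 90.8% of the tested genes. In RefSeq, Atr overlaps the protein-coding gene 1700065D16Rik, which was at 3.35 to 8.13 FPKM and highest in diplotene, and as no strand information is described, reads of overlapping genes are uncertain.

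Atm, the kinase activated by double-strand breaks, had the lowest level of the 9 genes in WT pachytene. It was at 1.05 and 0.958 FPKM in WT pachytene and at 0.661 and 0.976 FPKM in Cxxc1-null pachytene. In diplotene it was at 0.248 and 0.281 FPKM in the WT libraries and at 0.151 and 0.155 FPKM in the Cxxc1-null libraries. All pachytene libraries were above all diplotene libraries, and in diplotene both Cxxc1-null libraries were below both WT libraries. In meiosis II the values were 0.140 and 0.187 FPKM in WT and 0.124 and 0.210 FPKM in Cxxc1-null, and the genotypes overlapped. The mean was 3.80-fold higher in WT pachytene than in WT diplotene. Without the filter on low values the diplotene step was -0.67 in WT, with a limma adjusted p of 0.0062, and -0.65 in Cxxc1-null (adjusted p = 0.0095), on a scale that understates changes of genes near or under 1 FPKM.

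Topbp1, a scaffold with BRCT domains that activates ATR, declined at each step and by nearly the same amount in both genotypes. Pachytene levels were 31.4 and 29.8 FPKM for WT and 26.2 and 31.5 FPKM in Cxxc1-null. Diplotene levels were 10.9 and 9.72 FPKM for WT and 9.29 and 10.5 FPKM in Cxxc1-null. Meiosis II levels were 2.49 and 1.69 FPKM for WT and 2.45 and 1.61 FPKM in Cxxc1-null. The 3 stages were fully separate, and WT and Cxxc1-null libraries overlapped in each of them. In WT, Topbp1 fell by 1.48 ± 0.23 from pachytene to diplotene (limma adjusted p = 0.0026) and by 1.89 ± 0.23 from diplotene to meiosis II (adjusted p = 0.00013). In Cxxc1-null it fell by 1.45 ± 0.23 (adjusted p = 0.0043) and by 1.86 ± 0.23 (adjusted p = 0.00021). In a fit of WT pachytene and WT diplotene alone the first WT step had an adjusted p of 0.065. That fit passed 3 of all tested genes, against 3431 in the main fit. The WT mean went from 30.6 ± 1.16 FPKM in pachytene to 2.09 ± 0.564 FPKM in meiosis II, a 14.7-fold lower level, and the Cxxc1-null mean was 14.2-fold lower.

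Mdc1, the mediator that binds phosphorylated H2AX, was at 37.3 and 53.0 FPKM in WT pachytene and at 29.7 and 38.1 FPKM in Cxxc1-null pachytene. In diplotene it was at 25.7 and 33.1 FPKM in the WT libraries and at 23.0 and 32.7 FPKM in the Cxxc1-null libraries. The genotypes overlapped at both stages. In meiosis II Mdc1 was at 12.4 and 12.1 FPKM in the WT libraries and at 9.07 and 9.31 FPKM in the Cxxc1-null libraries, and there both Cxxc1-null libraries were the lower ones. Mdc1 fell from diplotene to meiosis II by 1.19 ± 0.26 in WT (limma adjusted p = 0.0035) and by 1.48 ± 0.26 in Cxxc1-null (adjusted p = 0.0012), while the earlier step, -0.59 ± 0.26 and -0.28 ± 0.26, did not pass (adjusted p = 0.11 and 0.42).

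Rnf8, the ubiquitin ligase that binds phosphorylated MDC1 and is required in mice for sex chromosome ubiquitination, had the same order of stages as Mdc1. Its WT libraries had 24.0 and 34.3 FPKM in pachytene, 15.2 and 18.9 FPKM in diplotene and 4.95 and 5.48 FPKM in meiosis II. Its Cxxc1-null libraries had 22.3 and 16.1 FPKM in pachytene, 15.1 and 14.2 FPKM in diplotene and 5.03 and 3.67 FPKM in meiosis II. Both Cxxc1-null libraries were below both WT libraries in pachytene and, by a narrow margin, in diplotene, and the genotypes overlapped in meiosis II. Rnf8 fell from diplotene to meiosis II by 1.53 ± 0.26 in WT (limma adjusted p = 0.0008) and by 1.56 ± 0.26 in Cxxc1-null (adjusted p = 0.00091). The step from pachytene to diplotene was -0.73 ± 0.26 in WT (adjusted p = 0.061) and -0.35 ± 0.26 in Cxxc1-null (adjusted p = 0.32). In RefSeq, Rnf8 overlaps the long non-coding RNA gene Gm28043, so part of its level is uncertain for the same reason as Atr.

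H2afx, the gene of the histone variant that these kinases phosphorylate, had the smallest share of its variation between stages, as given below. It was at 53.9 and 82.9 FPKM in WT pachytene and at 44.5 and 46.1 FPKM in Cxxc1-null pachytene. In diplotene it was at 43.1 and 54.5 FPKM in the WT libraries and at 47.4 and 51.4 FPKM in the Cxxc1-null libraries. In meiosis II it was at 34.1 and 38.2 FPKM in the WT libraries and at 36.7 and 25.1 FPKM in the Cxxc1-null libraries. The genotypes were separate in pachytene, where the WT pair was also the widest apart, and overlapped at the other stages. None of the 4 stage steps passed, the closest being -0.68 ± 0.26 from diplotene to meiosis II in Cxxc1-null (limma adjusted p = 0.054). That step passed under quantile normalization (adjusted p = 0.037), with a common median (adjusted p = 0.023) and without replicate 1 of Cxxc1-null meiosis II (-0.95, adjusted p = 0.033). The WT step there, -0.42 ± 0.26, passed with a common median (-0.71, adjusted p = 0.033). Part of the H2afx transcripts in cells is known to end without a poly(A) tail, and those are not primed by oligo-dT.

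As the pathway acts on the sex chromosomes, the share of all FPKM from the 1014 X-linked genes of the table is given beside the members as a description, with no test. It was 0.169 to 0.229% in WT pachytene and 0.330 to 0.362% in Cxxc1-null pachytene. In diplotene it was 0.105 to 0.115% in WT and 0.135 to 0.268% in Cxxc1-null, and in meiosis II 0.788 to 0.859% in WT and 0.918 to 1.17% in Cxxc1-null. The Cxxc1-null libraries were above the WT libraries at each stage, and in both genotypes meiosis II had the highest share. Of all tested genes, more were higher than lower in Cxxc1-null without overlap of the libraries. The shares were 24.1% against 13.3% in pachytene, 30.4% against 15.2% in diplotene and 30.1% against 26.4% in meiosis II.

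Brca1, a ubiquitin ligase subunit and repair mediator that helps to place ATR on unsynapsed axes, was near 1 FPKM and dipped in diplotene. It was at 1.13 and 1.46 FPKM in WT pachytene and at 1.35 and 1.57 FPKM in Cxxc1-null pachytene. In diplotene it was at 0.398 and 0.308 FPKM in the WT libraries and at 0.368 and 0.534 FPKM in the Cxxc1-null libraries. The genotypes overlapped in both, and all diplotene libraries were below all pachytene libraries. In meiosis II Brca1 was at 0.857 and 0.788 FPKM in the WT libraries and at 1.87 and 1.42 FPKM in the Cxxc1-null libraries, where the Cxxc1-null libraries were both higher. From pachytene to diplotene Brca1 fell by 0.76 ± 0.17 in WT (limma adjusted p = 0.0094) and by 0.76 ± 0.17 in Cxxc1-null (adjusted p = 0.011). From diplotene to meiosis II it rose in Cxxc1-null by 0.86 ± 0.17 (adjusted p = 0.002), and the step in WT was 0.43 ± 0.17 (adjusted p = 0.057). The WT fall lost its call under quantile normalization (adjusted p = 0.052), in a fit of these groups alone (adjusted p = 0.074) and without replicate 2 of WT diplotene (adjusted p = 0.067). The Cxxc1-null fall lost it without replicate 2 of Cxxc1-null pachytene (adjusted p = 0.081) and without replicate 1 of Cxxc1-null diplotene (adjusted p = 0.069). The step in WT from diplotene to meiosis II turned to -0.10 under quantile normalization and passed without the filter on low values (adjusted p = 0.040) and with a pseudocount of 0.1 (1.03, adjusted p = 0.032).

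Chek1, the effector kinase downstream of ATR, had the same dip and was back at its pachytene level in meiosis II. WT libraries had 4.10 and 2.92 FPKM in pachytene, 1.03 and 1.01 FPKM in diplotene and 4.09 and 3.43 FPKM in meiosis II. Cxxc1-null libraries had 3.43 and 4.31 FPKM in pachytene, 1.46 and 1.28 FPKM in diplotene and 3.77 and 4.30 FPKM in meiosis II. Every diplotene library was lower than every other library, pachytene and meiosis II overlapped, and the diplotene libraries of Cxxc1-null were both above those of WT. Chek1 fell from pachytene to diplotene by 1.15 ± 0.21 in WT (limma adjusted p = 0.0048) and by 1.03 ± 0.21 in Cxxc1-null (adjusted p = 0.0084). It rose from diplotene to meiosis II by 1.23 ± 0.21 in WT (adjusted p = 0.00088) and by 1.09 ± 0.21 in Cxxc1-null (adjusted p = 0.0022). Without replicate 2 of Cxxc1-null pachytene the Cxxc1-null fall had an adjusted p of 0.076, and in a fit of WT pachytene and WT diplotene alone the WT fall had one of 0.076.

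Chek2, the effector kinase downstream of ATM, was low and variable. WT libraries had 1.81 and 2.32 FPKM in pachytene, 1.39 and 0.711 FPKM in diplotene and 0.808 and 0.0654 FPKM in meiosis II. Cxxc1-null libraries had 1.12 and 2.15 FPKM in pachytene, 1.03 and 0.585 FPKM in diplotene and 0.375 and 0.234 FPKM in meiosis II. Pachytene and diplotene did not overlap in either genotype, and WT diplotene and WT meiosis II overlapped. None of the 4 steps of Chek2 passed, the log2 steps lying between -0.59 and -0.46 with limma adjusted p of 0.16 to 0.24. The WT step from diplotene to meiosis II passed under quantile normalization (-1.03, adjusted p = 0.0094), with a common median (-0.84, adjusted p = 0.030) and without replicate 1 of WT meiosis II (-0.93, adjusted p = 0.044), and was -0.16 at the other end when single libraries were left out. The Cxxc1-null step passed under quantile normalization (-0.77, adjusted p = 0.040).

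**Figure D1:**
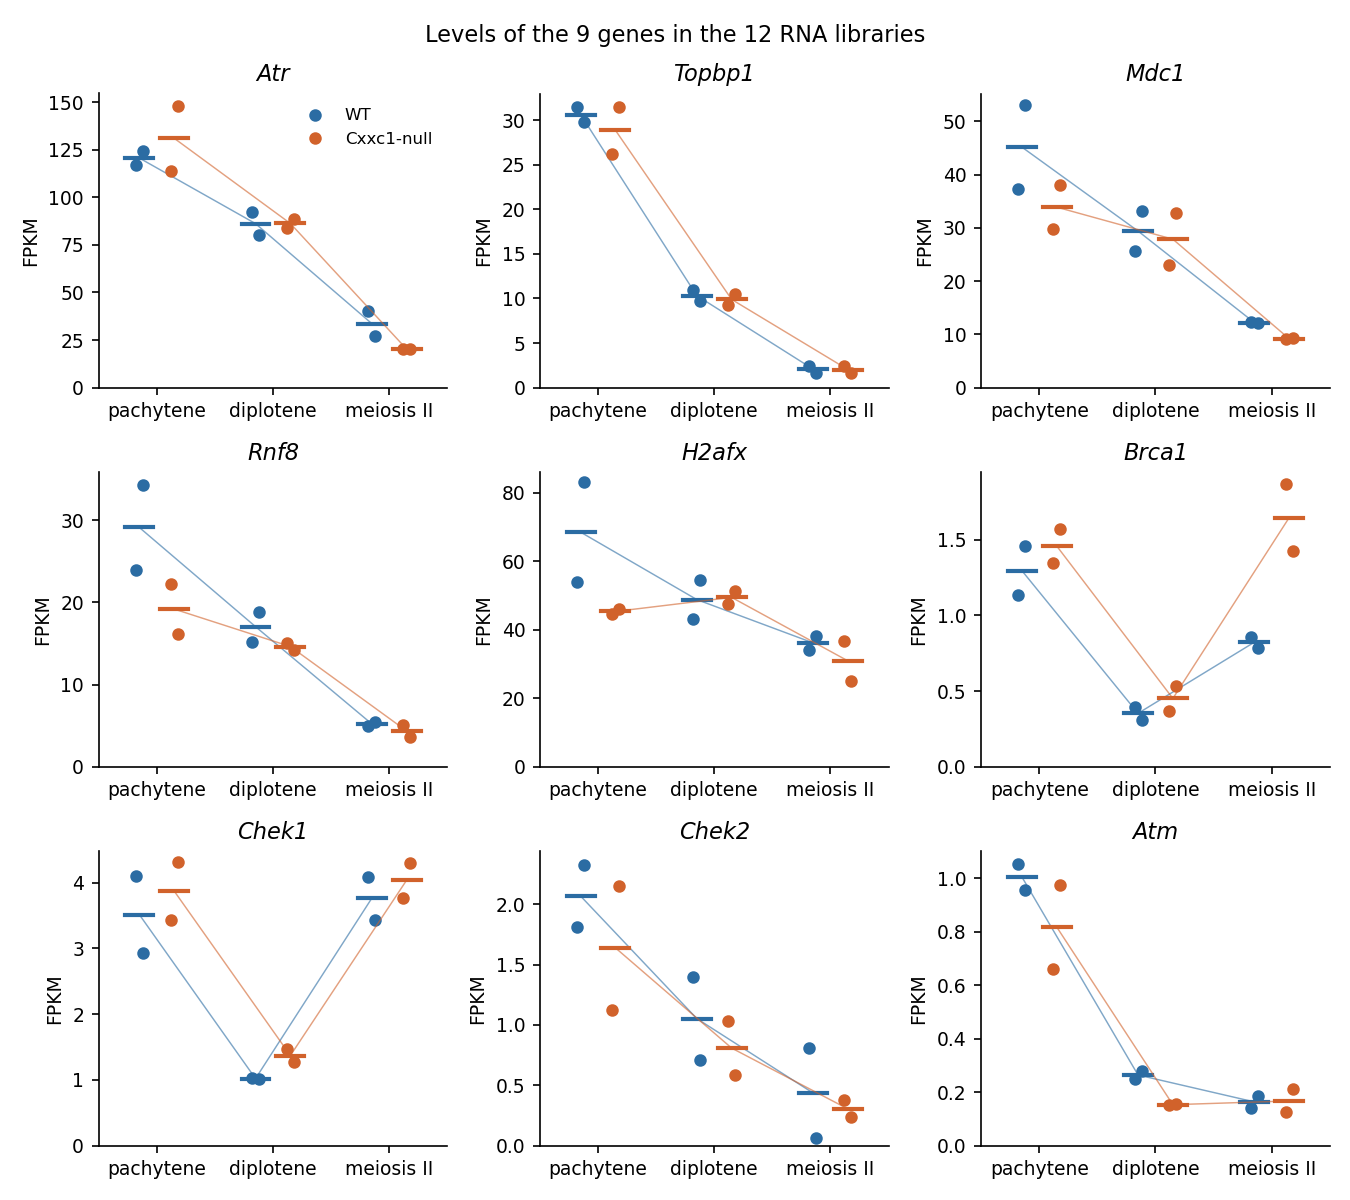
Level of each of the 9 genes (FPKM, linear axis from 0) by stage and genotype, with points for libraries, bars for group means and lines joining the means. Topbp1 goes from 29.8 to 31.4 FPKM in WT pachytene to 1.69 to 2.49 FPKM in WT meiosis II, while Chek1 is near 1 FPKM in WT diplotene and above 2.92 FPKM in WT pachytene and WT meiosis II.

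FPKM is a level per length, and members are set beside each other within a library on that basis. Scaling by length does not remove differences between genes in priming or coverage, and Atm was at only 0.124 to 1.05 FPKM. Atr was 111-fold and 130-fold the level of Atm in the WT pachytene libraries and 553-fold and 572-fold in the Cxxc1-null diplotene libraries, the lowest and highest ratios over the 12 being 96.2 and 572. In WT diplotene this ratio was 372 and 285. Topbp1 was 0.269 and 0.240 of the level of Atr in WT pachytene, 0.118 and 0.122 in WT diplotene and 0.0619 and 0.0621 in WT meiosis II. In Cxxc1-null meiosis II it was 0.121 and 0.0795, above both WT libraries of that stage, since Atr was lower there while Topbp1 overlapped WT. Chek1 exceeded Chek2 in 11 of the 12 libraries, the exception being replicate 1 of WT diplotene, with a ratio of 0.736.

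In WT, 3 of the 8 tested members fell from pachytene to diplotene (Topbp1, Chek1 and Brca1) and none rose, where 17.4% of all tested genes fell and 9.08% rose. From diplotene to meiosis II, 4 of 8 fell in WT (Topbp1, Atr, Rnf8 and Mdc1) and 1 rose (Chek1), where 18.9% of all tested genes fell and 26.1% rose. In Cxxc1-null the same 3 fell at the first step, where 17.4% of all tested genes fell and 11.9% rose. At the second step the same 4 fell in Cxxc1-null and 2 rose (Chek1 and Brca1), against 18.8% and 25.3% of all tested genes. The median log2 step of the 8 was -0.66 in WT for pachytene to diplotene and -0.87 for diplotene to meiosis II, against -0.11 and 0.02 over all tested genes. In Cxxc1-null the medians were -0.56 and -1.08, against -0.09 and -0.01. These counts leave out Atm, which did not pass the filter, and Brca1 passed it through its pachytene and Cxxc1-null meiosis II libraries. Markers of other cells also moved with stage. From WT pachytene to WT diplotene the 6 spermatogonium markers went from a sum of 20.1 to 34.9 FPKM to one of 5.73 to 7.25 FPKM, 3 of the 5 tested falling, and the 8 round spermatid markers went from 2063 to 2241 FPKM to 569 to 967 FPKM. Of those 8, 1 rose and 1 fell in limma, with 7 log2 steps below 0 and 1 above. In both genotypes together, the 8 round spermatid markers summed to 394 to 967 FPKM in diplotene and 1880 to 10090 FPKM in meiosis II, and the 5 Sertoli cell markers in the table summed to 1.47 to 6.09 FPKM and 170.3 to 234 FPKM. In meiosis II Clu carried that sum, at 166 to 228 FPKM, while Wt1 reached 3.18 FPKM and Amh 0.0982 FPKM at most, and Amh and Gata4 were at 0 in WT diplotene. All 3 tested Sertoli cell markers rose in limma from diplotene to meiosis II in both genotypes. Their median log2 step was 1.98 in WT and 1.37 in Cxxc1-null. The part of other cells in the steps of the members was not tested. Setting all libraries to a common median moved the median of all genes by 0.20 at the first step and by -0.30 at the second in WT.

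Stage accounted for most of the variation of these genes over the 12 libraries. It held 99.0% of the sum of squares of Topbp1 on the log2 scale, and 0.0617% of the tested genes had a higher stage share. The stage share was 94.0% for Chek1, 93.7% for Atr, 92.5% for Rnf8 and 91.1% for Mdc1, against a median of 74.5% over all tested genes. Brca1 (77.9%) and Chek2 (74.6%) were near that median and H2afx (59.5%) was below it. Genotype held 0.0435% of the variation of Topbp1 and 10.4% of that of both Brca1 and H2afx, against a median of 4.24%. The spread within groups held 22.2% of the variation of Chek2 and 21.2% of that of H2afx, the largest shares of the 8.

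**Figure D2:**
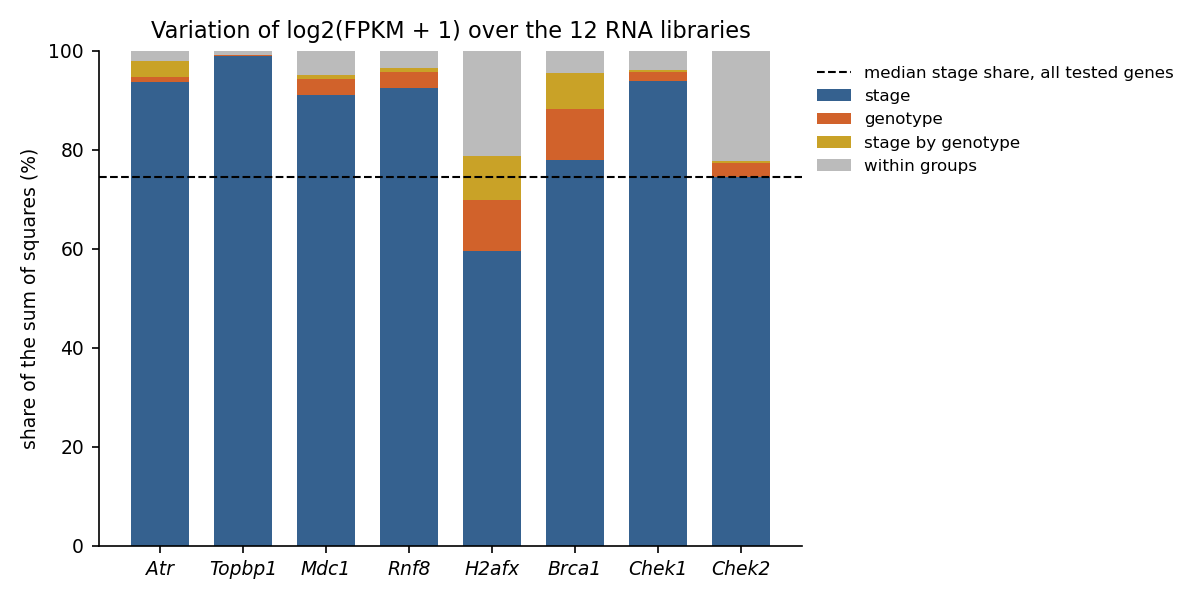
Share of the sum of squares of log2(FPKM + 1) over the 12 libraries (percent) that lies between stages, between genotypes, in their interaction and within groups, for the 8 tested members. The dashed line is the median stage share of all tested genes, 74.5%, which H2afx at 59.5% does not reach.

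None of the 8 tested members differed between Cxxc1-null and WT at an adjusted p under 0.05 in limma, at any stage, averaged over stages or in the test of a genotype by stage interaction. Over all tested genes 0.355% differed in pachytene, 0.787% in diplotene, 10.5% in meiosis II, 16.7% in the average and 0.054% in the interaction. At an unadjusted p under 0.05 there was 1 member in pachytene (Rnf8), 0 in diplotene, 2 in meiosis II (Atr and Brca1), 2 in the average (Rnf8 and Brca1) and 0 in the interaction. No other tool was run.

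In meiosis II the libraries of Atr, Brca1 and Mdc1 did not overlap between genotypes. Atr averaged 33.7 ± 9.16 FPKM in WT against 20.3 ± 0.0314 FPKM in Cxxc1-null, a log2 difference of -0.68 ± 0.22 with a 95% interval of -1.18 to -0.18 and a limma adjusted p of 0.085. It was -0.41 without replicate 1 of WT meiosis II and -0.95 without replicate 2. Brca1 averaged 0.822 ± 0.0491 FPKM in WT against 1.65 ± 0.313 FPKM in Cxxc1-null, a log2 difference of 0.53 ± 0.17 with an interval of 0.17 to 0.90 and an adjusted p of 0.069. Brca1 passed without the filter on low values (adjusted p = 0.0485) and with a common median (adjusted p = 0.0425). Mdc1 was lower in both Cxxc1-null libraries, at -0.38 ± 0.26 (adjusted p = 0.39). In this stage 2 members were lower and 1 was higher in Cxxc1-null without overlap of the libraries, where 26.4% of all tested genes were lower and 30.1% higher in that way. The summed round spermatid markers were also lower in these Cxxc1-null libraries, as given above. Of the 8 markers 6 had a log2 difference below 0 and 2 above, with a median of -1.68 against 0.02 over all tested genes. None of the 8 passed in limma. The WT and Cxxc1-null means were 3004 and 668 FPKM for Prm1 and 1470 and 517 FPKM for Tnp1, while Acr averaged 347 and 396 FPKM and Catsper3 95.8 and 119 FPKM. The part of these markers in the differences of Atr, Mdc1 and Brca1 was not tested.

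In pachytene, Rnf8 (-0.57 ± 0.26, interval -1.14 to -0.0014, limma adjusted p = 0.46) and H2afx (-0.55 ± 0.26, interval -1.13 to 0.02, adjusted p = 0.48) were lower in both Cxxc1-null libraries, and 13.3% of all tested genes were lower without overlap. Without replicate 2 of WT pachytene the differences were -0.32 for Rnf8 and -0.25 for H2afx, and without replicate 1 they were -0.82 and -0.86. For Rnf8 they were -0.35 without replicate 2 of Cxxc1-null pachytene and -0.79 without replicate 1. No tested member was higher in that way in pachytene, where 24.1% of tested genes were. In diplotene, Rnf8 and the untested Atm were lower without overlap, where 15.2% of tested genes were, and Chek1 was higher, where 30.4% were. The diplotene differences of the 8 tested members lay between -0.20 and 0.23. Averaged over stages, the log2 difference was -0.33 ± 0.15 for Rnf8 (adjusted p = 0.15), 0.24 ± 0.10 for Brca1 (adjusted p = 0.11) and -0.28 ± 0.15 for Mdc1 (adjusted p = 0.21). For Topbp1 it was -0.06 ± 0.13 with a 95% interval of -0.36 to 0.24, and for Chek1 0.14 ± 0.12 with an interval of -0.13 to 0.41. The change of the genotype difference from pachytene to meiosis II was -0.79 ± 0.32 for Atr (adjusted p = 0.34), and the stage dependence of Atr was therefore not established by this test.

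**Figure D3:**
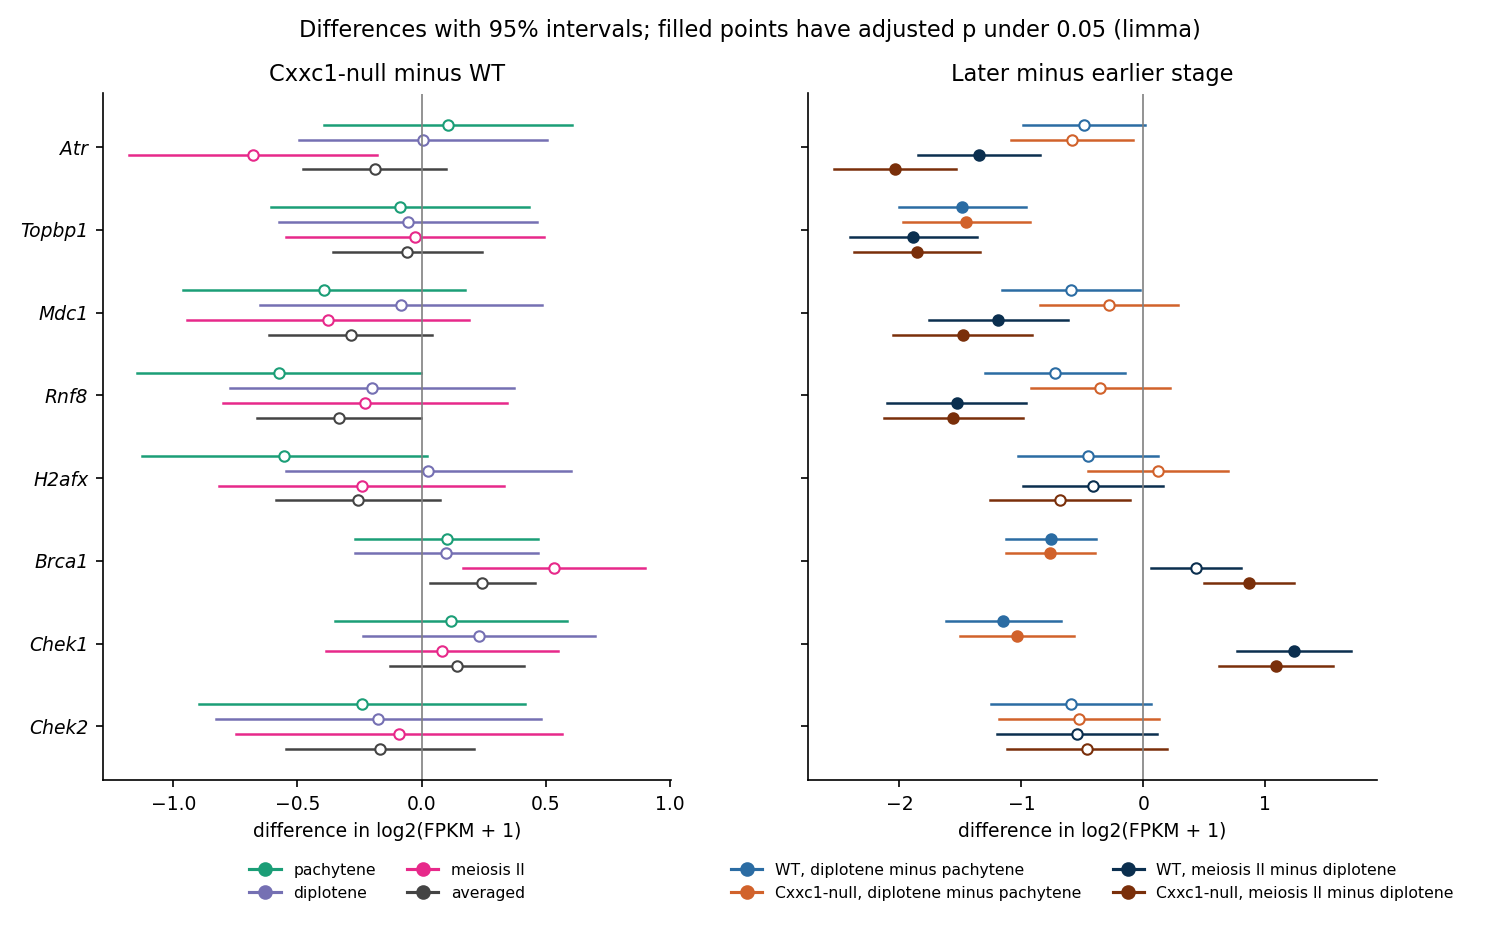
Log2 differences of the tested members with 95% intervals, for Cxxc1-null minus WT at each stage and averaged, and for the stage steps within each genotype. The genotype intervals include 0 except those of Rnf8 in pachytene, Atr and Brca1 in meiosis II and Rnf8 and Brca1 in the average, none of which passed the adjusted threshold.

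The wider pathway was described with 8 lists of 70 genes, of which 69 are in the table and 65 were tested. In WT, 17 of 65 fell and 6 rose from pachytene to diplotene, and 27 fell and 12 rose from diplotene to meiosis II. The shares that fell were 26.2% and 41.5%, against 17.4% and 18.9% of all tested genes. The shares that rose were 9.23% and 18.5%, against 9.08% and 26.1%. The Cxxc1-null steps gave 16 falls and 6 rises, then 27 falls and 10 rises. There 24.6% and 41.5% fell, against 17.4% and 18.8% of all tested genes, and 9.23% and 15.4% rose, against 11.9% and 25.3%. The list medians were -0.31 and -0.56 in WT and -0.19 and -0.37 in Cxxc1-null.

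The genes of RPA, the 9-1-1 clamp and ATR activation, which mark single-stranded DNA and load TOPBP1, had the most falls. In WT 7 of 13 tested fell and 1 rose at the first step, and 9 fell and 2 rose at the second. Rpa2, a subunit of the single-strand binding protein, fell by 1.59 ± 0.22 and then by 1.65 ± 0.22 (limma adjusted p = 0.0017 and 0.00021). Its mean went from 53.6 ± 2.55 FPKM in WT pachytene to 17.2 ± 0.815 in diplotene and 4.90 ± 1.55 in meiosis II. Tipin, part of the replication fork protection complex, fell by 3.27 ± 0.40 at the first step (adjusted p = 0.00095) and was back at 39.8 ± 6.48 FPKM in WT meiosis II, from 5.49 ± 1.73 in diplotene. The clamp genes Rad1 and Rad9b fell at the second step, by 2.27 ± 0.29 and 1.61 ± 0.21 (adjusted p = 0.00015 and 0.00016). In Cxxc1-null, Rad1 fell by 2.72 ± 0.29 and Timeless, the partner of Tipin, by 1.44 ± 0.23 at the second step (adjusted p = 9.9e-05 and 0.00085).

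Among the 13 genes of the ubiquitin branch and BRCA1 partners, 4 fell at the first step in WT, and 6 fell and 3 rose at the second. Over all tested genes 17.4% fell at the first step, and 18.9% fell and 26.1% rose at the second. Uimc1 and Fam175a, subunits that bring the BRCA1-A complex to ubiquitin chains, each fell by 1.80 at the first step, with SE of 0.21 and 0.30 (limma adjusted p = 0.0009 and 0.0036). Palb2, which links BRCA1 to BRCA2, fell by 1.37 ± 0.19 (adjusted p = 0.0016). Of the 6 sex body and asynapsis factors, 3 fell at each step and 1 rose at the second. Of the 5 other H2A variants, H2afv fell at the first step, by 1.87 ± 0.25 (adjusted p = 0.0013). At the second step 3 of the 5 fell, among them H2afy, the gene of macroH2A, by 1.33 ± 0.18 (adjusted p = 0.0002).

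The checkpoint targets ran the other way, since 2 of 7 rose at the first step in WT and 5 rose at the second, with no falls. Over all tested genes 9.08% rose at the first step in WT and 26.1% at the second. Cdc25c, the phosphatase that CHK1 and CHK2 restrain before division, rose by 2.52 ± 0.30 from diplotene to meiosis II (limma adjusted p = 9.9e-05), from 2.77 ± 0.202 to 20.6 ± 1.8 FPKM. Ppm1d, a phosphatase that removes phosphate from H2AX and from the checkpoint kinases, rose by 2.12 ± 0.20 at that step (adjusted p = 3.2e-05), from 32.0 ± 2.49 to 143 ± 2.32 FPKM. Of the 6 H2AX modifiers and phosphatases, 2 rose and 1 fell at the first step in WT and 1 rose at the second. Of the 7 genes of break sensing and resection 1 rose at the first step and 2 fell at the second, and of the 8 of the PIKK family and its chaperones 1 fell and then 4 fell. Over all tested genes 17.4% fell at the first step in WT and 18.9% at the second. Counts of 1 gene in lists of this size do not stand out from the shares of all tested genes.

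Between genotypes, 0 of the 65 passed in limma in pachytene or diplotene, with 5 and 6 at an unadjusted p under 0.05, and 4 (2 up and 2 down) passed in meiosis II, where 10.5% of all tested genes did, a larger share than in the lists. There Palb2 rose by 0.86 ± 0.19 (adjusted p = 0.019), from 0.522 ± 0.178 to 1.76 ± 0.0364 FPKM. Ppp6c, the catalytic subunit of a phosphatase that acts on phosphorylated H2AX, rose by 1.08 ± 0.25 (adjusted p = 0.022), from 71.2 ± 5.0 to 152 ± 8.92 FPKM. Rif1, an adaptor of break repair choice, fell by 0.99 ± 0.27 (adjusted p = 0.047), from 21.5 ± 7.17 to 10.1 ± 0.686 FPKM. The testis histone gene Hist1h2aa fell by 1.59 ± 0.40 (adjusted p = 0.033), from 2.62 ± 0.658 to 0.214 ± 0.303 FPKM, but as a clustered histone gene its reads may be shared with close copies. Averaged over stages, Ppp6c, Rad17, Cdc25c and Ppm1d rose and Hist1h2aa and Paxip1 fell, 6 of 65 where 16.7% of all tested genes passed. For Cdc25c the WT and Cxxc1-null means were 1.53 and 4.48 FPKM in pachytene but 20.6 and 19.4 FPKM in meiosis II. For Ppm1d they were 16.0 and 23.7 FPKM in pachytene and 143 and 148 FPKM in meiosis II. Rad17, the loader of the clamp, rose by 0.59 ± 0.14 (adjusted p = 0.023), and Paxip1, a BRCT adaptor of H3K4 methyltransferases, fell by 0.50 ± 0.14 (adjusted p = 0.036).

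**Figure D4:**
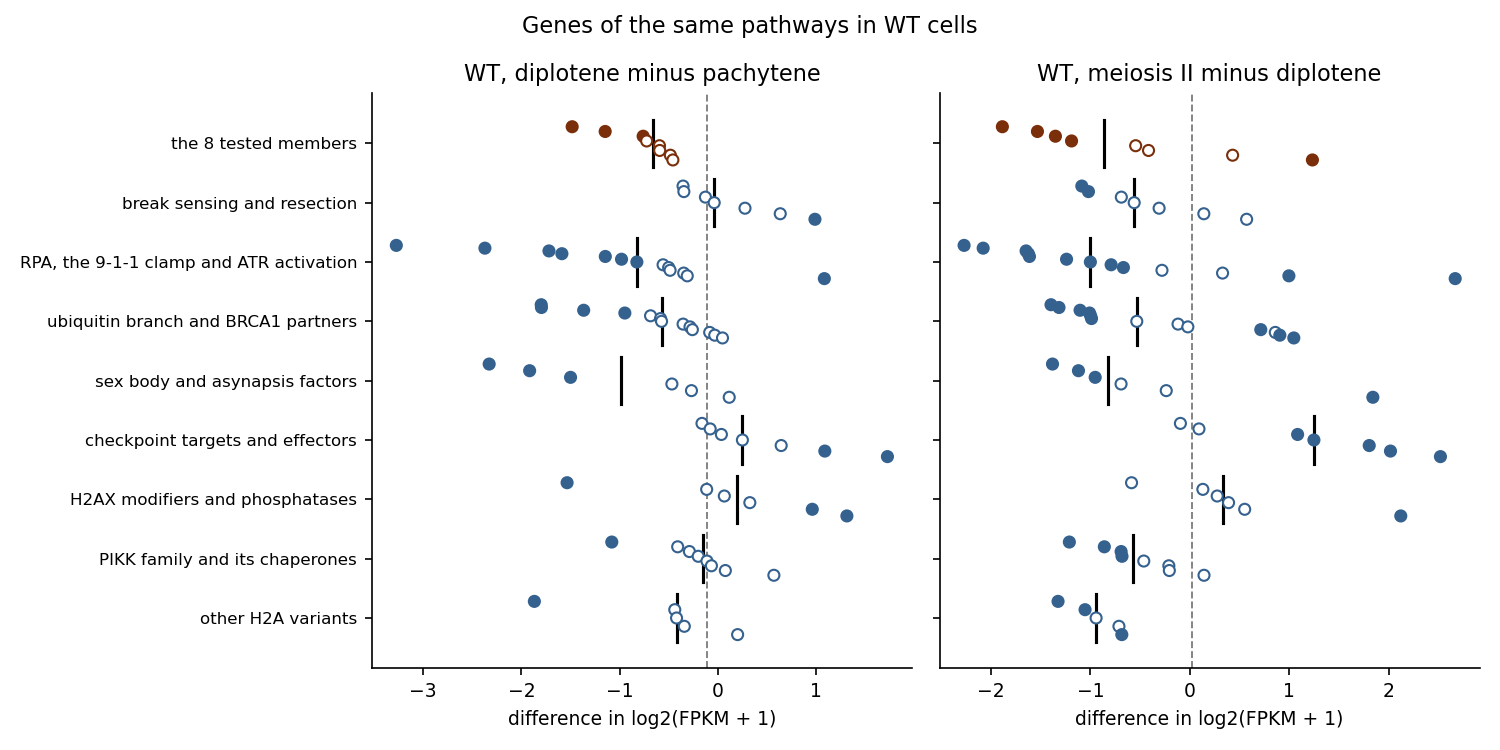
Log2 change of each tested gene of the 8 pathway lists and of the members at the 2 stage steps in WT, with filled points for an adjusted p under 0.05, black bars for list medians and a dashed line for the median of all tested genes. In the list of RPA, the 9-1-1 clamp and ATR activation, 9 of 13 genes fell from WT diplotene to meiosis II, and in the list of checkpoint targets none did.

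The profiles nearest to each member were found by the root mean square difference of log2(FPKM + 1) over the 12 libraries after removing each gene's mean. For Topbp1 they were Piwil2 (0.18) and Rpa2 (0.19), and Piwil2 went from 101 FPKM in WT pachytene to 8.06 in WT meiosis II. For Atr they were BC026590 and Gm16973 (both 0.15), for Mdc1 Plekhg4 (0.12) and Ipo8 (0.15), and for Rnf8 Gpat2 (0.22). Brca1 lay nearest to Map3k7 (0.11) and Dnm1l (0.14), and Chek1 to Cdv3 (0.16) and Galnt1 (0.17), which share the diplotene dip, Cdv3 being at 18.3, 6.89 and 17.1 FPKM over the WT stages. For H2afx they were Ptpn21 (0.14) and Atp6v0d1 (0.16), for Chek2 Etnk1 and Brwd1 (both 0.18), and for Atm the low genes LOC100642166 (0.09) and 8030423F21Rik (0.11).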

How the data were processed

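The authors deposited FPKM values for 23235 genes in 12 RNA libraries, and all 12 columns were used. The tools named in the submitters' processing notes are TopHat2 2.1.1 and Cufflinks 2.2.1, with the mm9 build. Sources used here give neither their roles nor the sequencing depth, so no intervals on counts or detection limits are given. Samples were grouped by their titles. Nothing in the labels says whether paired libraries were from different mice, so p-values measure the spread between libraries, which may be technical. The 8 H3K4me3 ChIP libraries were not analysed here.

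Values were taken as log2(FPKM + 1), which understates changes of low genes. Genes reaching 1 FPKM in 2 or more libraries (12956) entered 1 limma model (limma 3.58.1, R 4.3.3) with a mean per group, 6 residual degrees of freedom and a mean-variance trend, with Benjamini-Hochberg adjustment over all of them at 0.05. The fitting code was tested on simulated data. Alternatives were pseudocount 0.1, no filter, at least 5 FPKM, quantile normalization, a common median, the replicate number as block (also within genotype, added after seeing the data), no trend, separate fits, and leaving out libraries. The members and lists were chosen with earlier results of these data known. Genes named from the lists are at most the 6 with the smallest p among those passing in each contrast, and 2 nearest profiles per member, of which 1 is not reported here. Promoters were matched by symbol to RefSeq (GRCm38.p6), 8 of 9 matching, and the deposited values were not mapped to that build.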

Additional observations from a re-analysis of the deposited data

How the results depend on the processing

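Of the values recomputed for single genes under 23 other settings, 1459 kept their direction and side of the threshold, 20 passed newly, 8 no longer passed and 38 turned sign, and none of the last was called. The counts of members passing were unchanged between genotypes in pachytene, diplotene, the average and the interaction (0 each). In meiosis II the count went from 0 to 1, Brca1, without the filter and with a common median. The WT count from pachytene to diplotene went from 3 to 1 at a minimum of 5 FPKM, where Brca1 and Chek1 are not tested, and to 0 in a separate fit, with 2 to 3 when single libraries were left out. The Cxxc1-null count went from 3 to 1 at 5 FPKM and ranged from 1 to 3 when single libraries were left out, being 1 without replicate 2 of Cxxc1-null pachytene. The counts from diplotene to meiosis II ranged from 5 to 6 in WT and from 6 to 7 in Cxxc1-null when single libraries were left out. In the separate fit of WT pachytene and WT diplotene, 3 genes in all passed, against 3431 in the main fit. Otherwise the cause was not tested.

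Small genotype differences turned sign, and so did the Brca1 step from WT diplotene to meiosis II, which was 0.43 in the main fit. Quantile normalization gave -0.0458 for Brca1 in pachytene, and in diplotene -0.0658 for Atr, -0.125 for Brca1, -0.0552 for H2afx and -0.0053 for Chek1, and -0.10 for Brca1 from WT diplotene to meiosis II. A common median gave -0.13 for Atr, -0.0326 for Brca1 and -0.11 for H2afx in diplotene and 0.0264 for Topbp1 in meiosis II. Without both libraries that stand apart the values were -0.0729 for Chek1 in pachytene, and -0.0390 for Atr, -0.0298 for H2afx and 0.0052 for Chek2 in diplotene. Pseudocount 0.1 gave 0.0403 for Chek2 in meiosis II. Leaving out single libraries, the pachytene ranges were -0.0817 to 0.295 for Atr, -0.00220 to 0.204 for Brca1, -0.216 to 0.0393 for Topbp1, -0.0729 to 0.307 for Chek1 and -0.526 to 0.0454 for Chek2. The diplotene ranges were -0.0992 to 0.108 for Atr, -0.137 to 0.0246 for Topbp1, -0.33 to 0.16 for Mdc1, -0.14 to 0.19 for H2afx and -0.416 to 0.0682 for Chek2. In meiosis II they were -0.23 to 0.17 for Topbp1, -0.507 to 0.0232 for H2afx, -0.0174 to 0.182 for Chek1 and -0.47 to 0.29 for Chek2, and in the average -0.12 to 0.0099 for Topbp1.

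Same-numbered libraries of WT and Cxxc1-null did not deviate together at every stage (r of -0.066, 0.32 and 0.11), so the numbers were not taken as pairs across genotypes. Within a genotype the 3 pairs of stages gave r of 0.17 to 0.31 in WT and 0.12 to 0.42 in Cxxc1-null. With the replicate number as a block, 4 members passed from WT pachytene to diplotene (Mdc1 added) and 7 from Cxxc1-null diplotene to meiosis II (H2afx added), and the other counts of members were unchanged. A replicate block within each genotype, chosen after seeing the data, gave 5 from WT pachytene to diplotene (Mdc1 and Rnf8 added), 5 from WT diplotene to meiosis II, 4 and 7 for the Cxxc1-null steps (Atr and H2afx added) and 0 for the interaction. With stages joined by genotype and number, 0 members and 434 genes differed in the average, against 0 and 2158. With 2 libraries a group and depth not given, changes of genes under 1 FPKM, such as Atm, are the least certain.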
